A study of Danio rerio with 6 samples.

Results

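Melanin synthesis and melanosome genes were followed through 6 genes of the array annotation, dct, tyr, pmelb, rab32a, rab32b and tspan36. Each had 1 probe set, so the group held 6 of 15502 tested probe sets and 6 of 8793 named genes. Transcripts were measured on 6 Affymetrix arrays. Of these, 3 came from retina dissected with the retinal pigment epithelium (RPE) attached, and 3 from retina alone. All pools were wild-type zebrafish embryos of the AB strain at 52 hours post fertilization, and each pool held 10 tissues. The study used the comparison to infer which transcripts belong to the RPE, the pigmented cell sheet behind the photoreceptors.

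Melanin is made inside melanosomes, organelles related to lysosomes. Tyrosinase oxidises tyrosine, dopachrome tautomerase acts further along the pathway to eumelanin, and the product is laid down on a fibrous matrix of the Pmel protein. In mammals the small GTPase RAB32 and its relative RAB38 direct melanin enzymes to the maturing organelle. In zebrafish these genes are shared by the RPE, which arises from the optic cup, and by melanophores, which arise from the neural crest and also lie on and around the eye.

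The deposited values are linear intensities, with array medians of 73.2 to 74.5 in retina with RPE and 68.7 to 69.6 in retina. Pearson correlations of log2 values over all probe sets, which describe the arrays only, were 0.996 to 0.997 within retina with RPE, 0.994 to 0.995 within retina and 0.980 to 0.988 across the groups. The RPE marker rpe65a, whose enzyme regenerates the visual chromophore, read 785 to 1138 in retina with RPE and 66.1 to 87.8 in retina. A second, dimmer probe set of rpe65a read 116 to 151 and 42.2 to 46.8, a 2.94-fold rise. Of 27 measured genes of retinal neurons and photoreceptors, 11 were called lower and 1 higher with RPE attached, against 17.0% and 19.4% over all genes. Centred within probe set class, 16 were called lower, as were 2138 of all 8793 genes.

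All 6 genes were higher in retina with RPE than in retina, and in each the 3 retina with RPE arrays lay above the 3 retina arrays. The rises fell into 3 sizes. The matrix gene pmelb and the enzyme gene dct rose most, rab32a and tspan36 rose about 3-fold, and tyr and rab32b rose by less than 1.4-fold. Over all tested probe sets 19.0% were called higher and 28.7% had every retina with RPE array above every retina array, so direction alone is common in these arrays. Calls rest on limma with an adjusted p under 0.05, by Benjamini-Hochberg over 15502 probe sets. Of the 6 genes 4 rose at least 2-fold, as did 0.593% of probe sets, and the same 4 rose at least 3-fold, as did 0.161%. The median log2 change of the 6 was 1.65, against 0.04 over all probe sets.

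**Figure D1:**
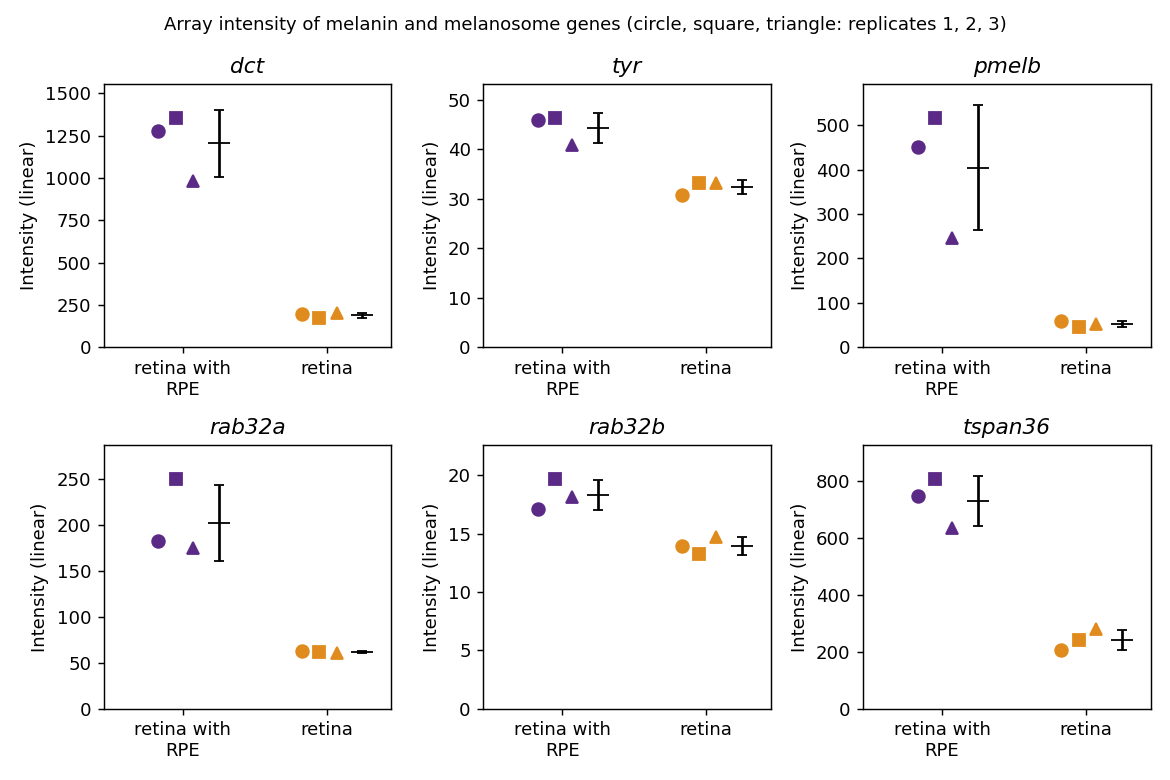
Linear array intensity of the 6 genes in retina with RPE (purple) and retina (orange). Circles, squares and triangles are replicates 1, 2 and 3, and the black bar is the mean ± SD (n = 3). In every panel the 3 retina with RPE arrays lie above the 3 retina arrays. As a ratio of lowest retina with RPE to highest retina array, the gap is widest in dct (4.90) and pmelb (4.16). It is narrowest in rab32b (1.16).

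The enzyme gene dct, which encodes dopachrome tautomerase, read 1279.6, 1355 and 982 in the retina with RPE pools, against 194, 173 and 200.3 in the retina pools. The lowest pool with RPE was thus 4.90-fold above the highest retina pool. Its log2 change was 2.66 ± 0.13 (SE; adjusted p = 4.5e-06, limma, n = 3 each), which ranked 6 among all probe sets. The retina pools were close to each other, with a coefficient of variation of 7.49%, against 16.3% in the pools with RPE.

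The gene tyr encodes tyrosinase, the rate-limiting enzyme of melanin synthesis. It read 45.9, 46.3 and 40.9 in retina with RPE and 30.8, 33.2 and 33.2 in retina. The groups were apart, but by little, since the lowest pool with RPE was 1.23-fold above the highest retina pool. Its log2 change of 0.45 ± 0.09 (SE; adjusted p = 0.0045, limma, n = 3 each) ranked 1213. The values carry no detection call. On every array tyr was among the dimmer probe sets, between percentiles 30.7 and 38.7 of the array. The part of this low signal in the small fold was not tested. In dct and tyr, enzymes of the same pathway, the log2 changes differed by 2.21 ± 0.15 (SE). The within-array log ratio of dct to tyr did not overlap between the groups (exact permutation p = 0.1, 2-sided, the smallest that 3 against 3 arrays allow).

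The melanosome matrix gene pmelb had the largest change of the 6. It read 450.2, 516 and 246 in retina with RPE, against 59.0, 46.4 and 53.3 in retina. Replicate 3 of retina with RPE gave less than the other 2 pools but was still 4.16-fold above the highest retina pool. The log2 change was 2.87 ± 0.23 (SE; adjusted p = 7.9e-05, limma, n = 3 each), which ranked 5. The coefficient of variation of 34.9% in retina with RPE was the highest among the 6 genes. The changes of dct and pmelb were not told apart, with a difference of -0.21 ± 0.26 on the log2 scale (SE; exact permutation p = 0.4).

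Both Rab32 genes were higher with RPE attached. The gene rab32a read 183, 249 and 174 in retina with RPE and 62.3, 61.2 and 60.9 in retina. The coefficient of variation of its retina values was 1.21%, and all 3 pools with RPE lay at least 2.80-fold above the highest of them. The log2 change was 1.70 ± 0.13 (SE; adjusted p = 6.9e-05, limma, n = 3 each). The gene rab32b read 17.1, 19.7 and 18.1 in retina with RPE and 13.9, 13.2 and 14.7 in retina. These were among the dimmest values, down to percentile 7.23 of an array. Its log2 change was 0.39 ± 0.09 (SE; adjusted p = 0.0093, limma, n = 3 each), ranking 1741, and 0.20 with a pseudocount of 16. Whether its signal lay above background was not tested, so the size of its change is uncertain. Of the 3875 probe sets with the lowest mean values, rab32b among them, 15.6% were called higher. The 2 genes' measured log2 changes differed by 1.31 ± 0.16 (SE; exact permutation p = 0.1, the smallest possible), within that limit.

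The gene tspan36 encodes a tetraspanin, a membrane protein with expression in zebrafish pigment cells. It read 747, 805 and 634 in retina with RPE, against 206, 239.8 and 279 in retina. The lowest pool with RPE was 2.28-fold above the highest retina pool. Its log2 change was 1.60 ± 0.13 (SE; adjusted p = 7.7e-05, limma, n = 3 each), close to that of rab32a, with a difference between them of 0.10 ± 0.18 (SE; exact permutation p = 0.6). Among the 15 pairs of the 6 genes, the within-array ratio did not overlap between the groups in 12, each at an exact permutation p of 0.1, or 0.125 after adjustment over the pairs. No pair could pass the threshold in this design. The other 3 pairs were dct with pmelb, rab32a with tspan36, and tyr with rab32b, whose changes differed by 0.06 ± 0.13 (SE; exact permutation p = 0.6).

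**Figure D2:**
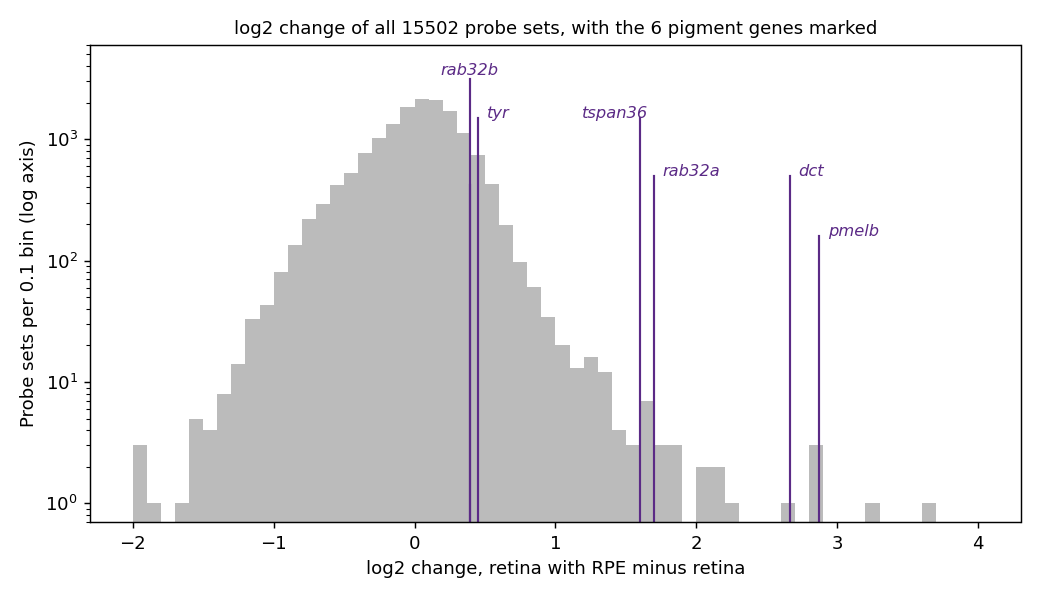
Distribution of the log2 change (retina with RPE minus retina) over 15502 probe sets, as probe sets per 0.1-wide bin on a log axis, with purple lines at the 6 genes (line heights only separate the names). The changes of dct and pmelb rank 6 and 5, rab32a and tspan36 stand at ranks 18 and 25, and tyr and rab32b lie on the shoulder of the distribution.

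The order of the 3 retina with RPE pools was alike in most of the 6 genes. All 6 read highest in replicate 2, and 5 read lowest in replicate 3, rab32b being lowest in replicate 1. Over all probe sets 32.4% were highest in replicate 2 and 32.2% lowest in replicate 3. Among the 92 probe sets called higher with at least 2-fold change, 53.3% were highest in replicate 2. So were 7 of 11 other RPE genes, 4 of 6 xanthophore genes, 6 of 13 mesenchyme genes and 2 of 6 neural crest genes. A highest value in replicate 2 was thus not particular to the 6 genes. The order of replicates 2, 1 and 3 was found in 5 of the 6 genes and 16.6% of all probe sets. It was found in 33.7% of the 92 probe sets, 2 of 6 xanthophore, 1 of 6 neural crest and 4 of 13 mesenchyme genes. The retinol receptor gene stra6 had the same order, with 180.4 in replicate 2, 162 in replicate 1 and 126 in replicate 3. In all, 5 of the 11 RPE genes did, whereas rpe65a and the opsin relative rgrb read highest in replicate 1. The pool with the lowest pmelb was therefore not set apart in the same way by rpe65a, at 797 in replicate 2 and 785 in replicate 3. In pooled tissue, more cells of a type and more RNA per cell cannot be told apart.

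**Figure D3:**
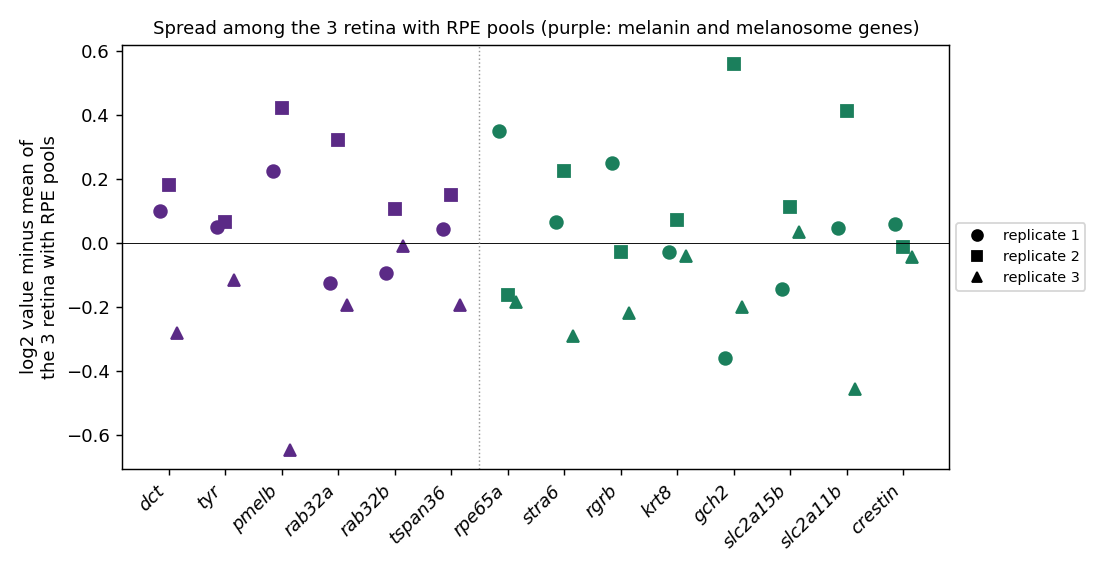
Log2 value of each retina with RPE pool minus the mean of the 3 pools, for the 6 genes (purple) and for genes of the RPE, xanthophores and neural crest (green). Circles, squares and triangles are replicates 1, 2 and 3. Replicate 2 is highest in all 6 purple columns and in 5 of the 8 green ones, and replicate 1 is highest in rpe65a, rgrb and crestin.

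The study deducted a yield-adjusted retina value from each value of retina with RPE. Yields were not at hand here, so the part of each value owed to retina was estimated from neuron and photoreceptor genes. Of 27 measured, the 21 with a mean log2 value of at least 8 in retina were used. The median ratio of these 21 between the groups, taken as the retinal share, was 0.744, with their level in attached tissue assumed to be 0. Over all 27 the median log2 change was -0.24, a ratio of 0.844. All tissue beyond the share was counted together, although genes of neural crest, mesenchyme and vessels also rose with RPE attached. The folds are therefore of attached tissue over retina, and the part of RPE in them was not tested. On this basis the fold of attached tissue over retina was estimated at 25.7 for pmelb (95% interval 17.1 to 38.1, with the share held fixed). The estimate was 21.8 for dct (17.4 to 27.2), 9.78 for rab32a (7.48 to 12.6) and 8.92 for tspan36 (6.79 to 11.5). For tyr and rab32b it was 2.44 (1.75 to 3.23) and 2.22 (1.55 to 2.99). Both of these genes were dim and no background was deducted here beyond the deposited processing, so their estimates are uncertain beyond the intervals. Without retina replicate 1 the estimate for pmelb was 39.2, and without retina with RPE replicate 3 it was 38.5. The share also moves these folds. With a share of 0.5 the estimate for dct was 11.7, and with 0.9 it was 54.3, whereas that for tyr was 1.74 and 4.68. The order of the 6 genes is that of the direct ratios at any share.

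Other genes of melanosome biology were counted from lists chosen with earlier results of these arrays known. Of 34 listed genes of melanosome biogenesis complexes 17 were measured, of which 4 rose and 2 fell, against 19.4% and 17.0% over all genes. Their median log2 change was 0.14. The largest rise was that of hps4, a subunit of the BLOC-3 complex, which in mammals activates RAB32 and RAB38. It read 103, 119.6 and 111 in retina with RPE and 50.7, 48.6 and 57.2 in retina, with no overlap, a 2.13-fold rise (95% interval 1.84 to 2.48; adjusted p = 1.2e-04, limma). The AP-3 adaptor gene ap3b1a, of a complex that sorts cargo to lysosome-related organelles, rose 1.44-fold, and its second probe set had a log2 change of 0.50. The tethering gene vps41 and the BLOC-1 gene bloc1s3 had log2 changes of 0.41 and 0.29, and bloc1s3 lost its call in 9 of 12 other settings.

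The falls in that list were snapin, which encodes a BLOC-1 and SNARE-binding protein, with a log2 change of -0.72 ± 0.13, and rabggtb, a subunit of the enzyme that attaches lipid anchors to Rab proteins, at -0.62 ± 0.09 (SE). Of 4 measured genes of melanosome transport, 1 was called higher, against 19.4% over all genes. It was zgc:91968, listed with the synonym mreg, at 0.32. That probe set was near the bottom of the scale, at 11.5 ± 1.36 in retina with RPE and 9.18 ± 0.308 in retina (SD, n = 3), and lost its call in 9 of 12 other settings. Of 13 further genes listed under melanin enzymes, transporters and matrix only trpm7 and the receptor gene mc1r were measured. Neither was called by its brightest probe set. The 2 probe sets of trpm7 disagreed, as the dimmer was called higher at a log2 change of 0.32, against -0.10 for the brightest. The melanin genes tyrp1b, pmela, slc24a5, slc45a2 and oca2 had none among the named probe sets.

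**Figure D4:**
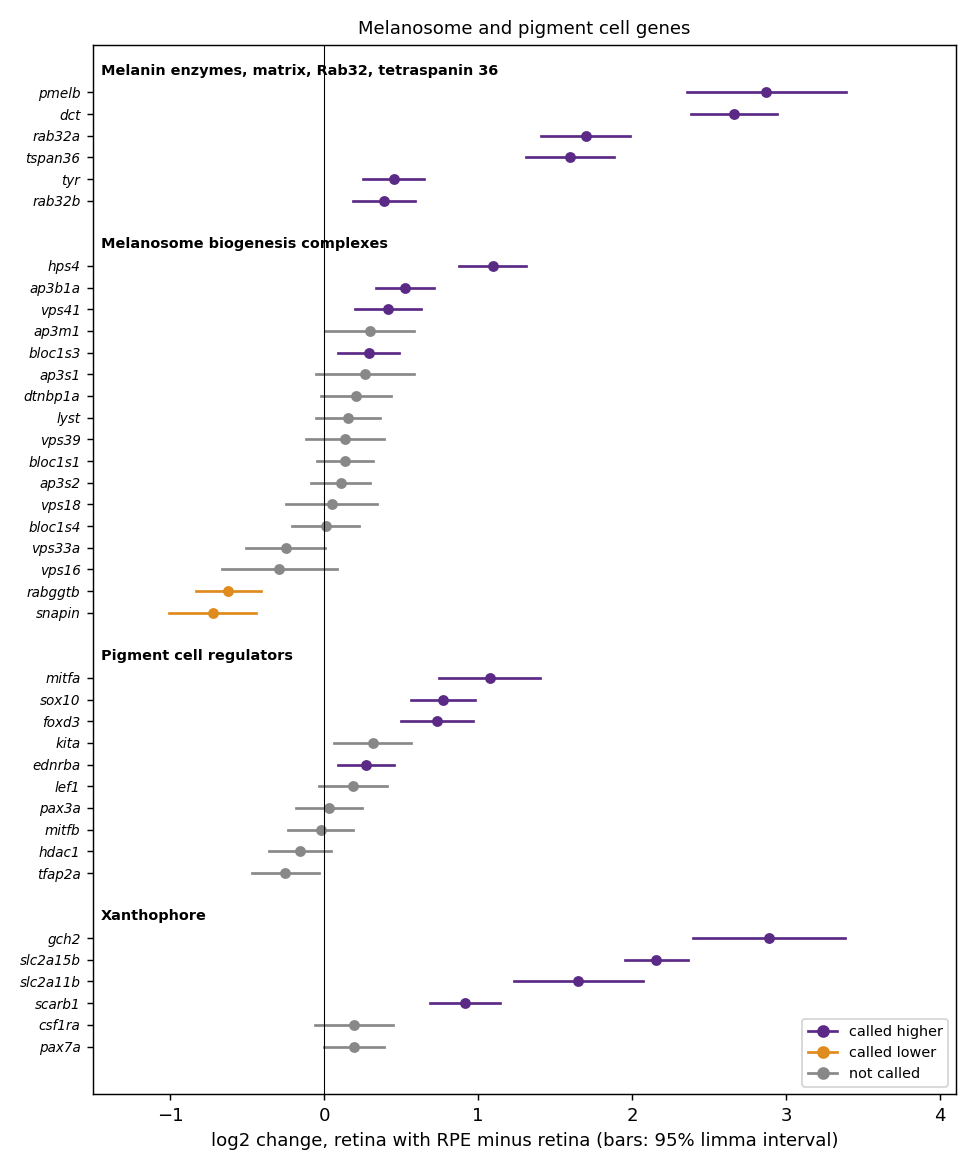
Log2 change (retina with RPE minus retina) with 95% limma intervals for the 6 genes and for 3 further lists, coloured by call at an adjusted p under 0.05. The top 4 genes of the first block lie above 1.5, hps4 and mitfa near 1.1, and most biogenesis genes near 0.

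Among 10 measured regulators of pigment cells 4 were called higher, against 19.4% over all genes. Centred within probe set class, 3 were called higher and 2 lower, against 1013 and 2138 of all 8793 genes. The factor gene mitfa, which zebrafish melanophores need, read 56.9, 63.0 and 58.3 in retina with RPE and 22.3, 28.1 and 35.5 in retina, a log2 change of 1.08 ± 0.15 (SE; adjusted p = 8.6e-04, limma). Its relative mitfb, at -0.02, was not called. The neural crest factor genes sox10 and foxd3 rose 1.71-fold and 1.66-fold. The endothelin receptor gene ednrba had a log2 change of 0.27, and lost its call in 8 of 12 other settings.

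Some markers of neural crest and of other pigment cells were also higher with RPE attached. Of 6 measured genes of neural crest and melanophores outside the RPE, 3 rose and 1, sox9b, was lower at -0.37. Over all genes 19.4% were called higher and 17.0% lower. Of the 3 that rose, sox10 and foxd3 were also counted among the regulators above. So was kita, and mc1r was counted above with the melanin genes. The sox9b call was lost in 5 of 12 other settings, and its second probe set was at 0.18. The summed intensity of this list was 1359 to 1477 in retina with RPE and 1084 to 1270.0 in retina. Much of it was sox9b, the gene that fell, at 587 to 692 in retina with RPE and 773 to 913 in retina. The sums therefore understate the rise of the others. The largest rise was that of crestin, a neural crest marker of zebrafish, to 352 ± 13.0 in retina with RPE, against 74.8 ± 4.50 in retina (SD, n = 3), 4.72-fold. The melanophore receptor genes kita and mc1r, dim at 15.9 to 25.4 over all arrays, were not called, at log2 changes of 0.32 and 0.18. The adjusted p of kita was 0.0526 (limma), near the threshold, and its groups did not overlap. Of 12 other settings, kita was called in 3 and mc1r in 1. Of 6 measured xanthophore genes 4 rose, against 19.4% over all genes. The summed intensity of the 6 was 521 to 713 in retina with RPE and 175 to 202 in retina. The 4 were the pteridine enzyme gene gch2 at 7.41-fold, slc2a15b at 4.46-fold, slc2a11b at 3.14-fold and the carotenoid uptake gene scarb1 at a log2 change of 0.91. Second probe sets gave less, with log2 changes of 0.10 for gch2, not called, 0.42 for slc2a15b and 0.42 for scarb1. By its brightest probe set pax7a was not called. Its dimmer probe sets were at 0.51, called higher, and at 0.07 and 0.09, not called. No marker was at 0, as the lowest value of any array was 7.66. How much of the rises of the 6 genes came from RPE and how much from other pigment cells was not tested.

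The other lists were counted in the same way. Of 11 measured RPE genes 8 rose, and the eye factor gene otx2b fell, at -0.56 ± 0.12 (SE). The list was led by rpe65a, stra6 at 2.12, rgrb at 2.04 and the keratin gene krt8 at 1.90 (log2 changes). Genes called higher numbered 11 of 13 for mesenchyme and cartilage, 5 of 6 for vessel endothelium, 4 of 7 for leukocytes, 3 of 7 for erythrocytes, 4 of 11 for skin and cornea and 3 of 9 for skeletal muscle. Over all genes 19.4% were called higher. In the skin list 1 gene was called lower. The erythrocyte list had 2 called higher and 2 lower under cyclic loess, and 1 and 2 centred within probe set class. Over all 8793 genes those settings called 1395 higher and 1299 lower, and 1013 and 2138. The summed mesenchyme intensity was 1101 to 1595 in retina with RPE and 640.1 to 679 in retina. The part of these cells in the rises of the 6 genes was not tested.

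Set beside their gene families, rab32a and tspan36 had the largest rises. Of 36 measured Rab GTPase genes 5 were called higher and 6 lower, 13.9% and 16.7% against 19.4% and 17.0% over all genes. Centred within probe set class the counts were 2 and 10, and centred on ribosomal protein genes 7 and 5. Over all 8793 genes the same scalings gave 1013 higher and 2138 lower, and 2224 and 867. The median log2 change was -0.02, and -0.11 to 0.08 under other scalings. After rab32a the next by brightest probe set were rab22a at 0.42, rab32b at 0.39 and rab18b at 0.34. Both rab22a and rab18b lost their calls under cyclic loess, quantile normalization and centring within probe set class, and rab18b in 7 of 12 other settings in all. The largest falls were rab18a at -1.17 ± 0.12, rab40c at -0.84 ± 0.09, rab1bb at -0.81 ± 0.12 and rab15 at -0.76 ± 0.12 (SE). A second, dimmer probe set of rab40c, at -0.05, was not called, nor were those of rab12, rab36, rab25a and rab41. Dimmer probe sets of rab11bb and rab5aa, at 0.46 and 0.34, were called higher, with the groups overlapping. Of 19 measured tetraspanin genes 4 were called higher and 5 lower, 21.1% and 26.3% against the same shares over all genes. The counts were 3 and 8 under cyclic loess and 3 and 9 centred within probe set class. For all 8793 genes they were 1395 and 1299, and 1013 and 2138. The second largest rise after tspan36 was that of cd63, whose protein lies in the membranes of lysosome-related organelles, at 2.06-fold, ahead of tspan37 at 0.38 and tspan4a at 0.37 on the log2 scale. The call of tspan37 was lost in 3 of 12 other settings. This order rests on the brightest probe sets. A dimmer probe set of tspan4a, at 0.04, was not called. For cd81a a dimmer probe set was called higher at 0.60, and another, at -0.10, was not called. Those of cd82b, tspan14 and cd151l were not called. The largest falls were tspan18a at -0.83, tspan13b at -0.70, cd82a at -0.63 and tspan7 at -0.52.

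**Figure D5:**
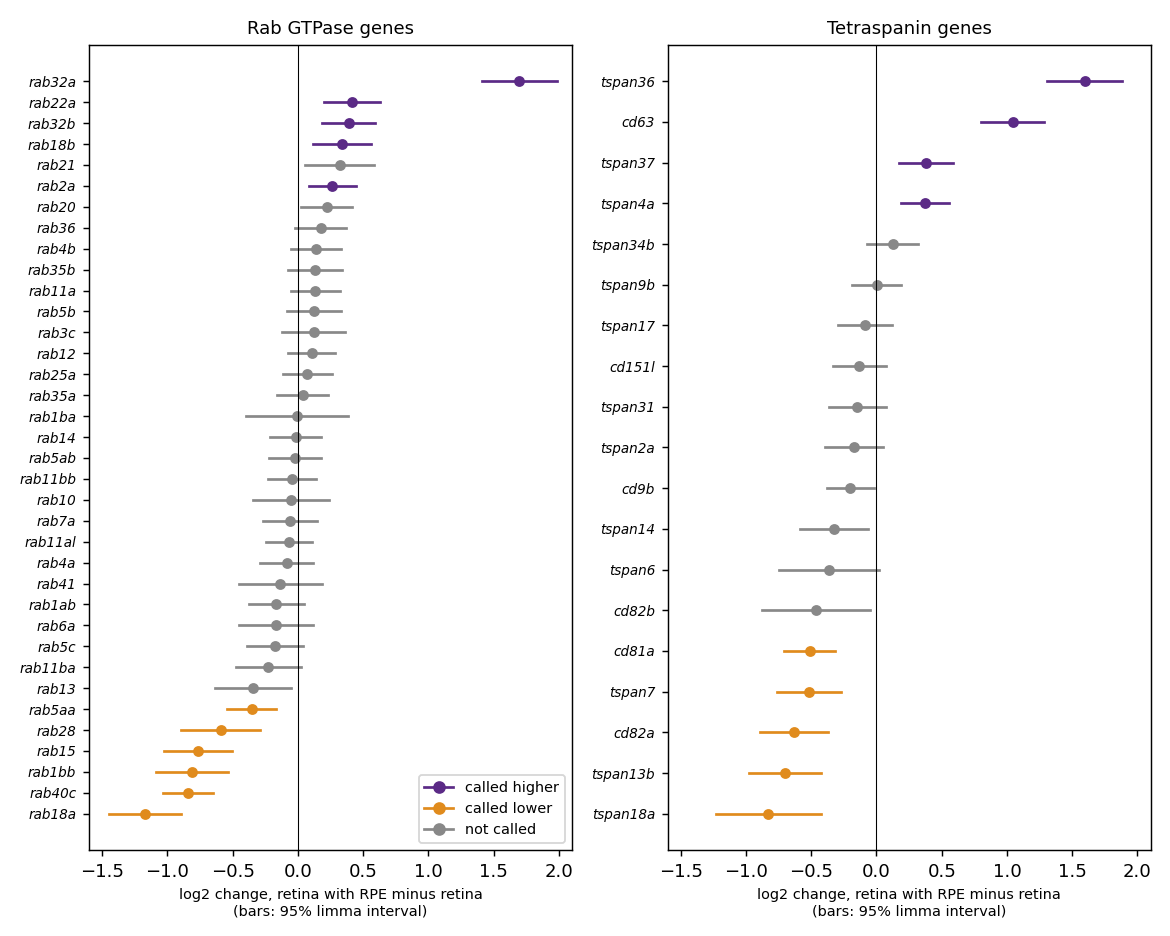
Log2 change (retina with RPE minus retina) with 95% limma intervals for 36 Rab GTPase genes and 19 tetraspanin genes, 1 probe set per gene, coloured by call. In each panel the top gene, rab32a at 1.70 and tspan36 at 1.60, stands apart from most of its family, which lies within 0.5 of 0.

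Likeness of pattern was measured as the Euclidean distance between log2 values over the 6 arrays, each probe set centred on its own mean. Such distances follow the size of the group difference first. The gene nearest to dct was pmelb, at a distance of 0.55, followed by crestin at 0.67 and slc2a15b at 0.75. After dct the nearest to pmelb were gch2 at 0.91 and defbl1 at 1.09. The nearest to rab32a were pmp22b at 0.27, mb at 0.32 and gpd1b at 0.32. Those to tspan36 were krt18a.1 at 0.25, gstp1.2 at 0.27 and krt18b at 0.34. The nearest to tyr were pdia5 at 0.06, gab1 at 0.10 and snu13a at 0.10, and to rab32b znf142 at 0.05, spata6l at 0.07 and si:ch73-303b9.1 at 0.07.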

How the data were processed

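For each array the authors deposited a table of linear intensity values by probe set. RMA, affy and R 2.2.0 stand in the submitters' processing notes, whose order is not given. RNA of 33 ng per pool was labelled with 2 cycles of amplification, per the labels' protocols. The labels call the pools biological replicates. Of 15617 probe sets 115 controls were left out. Symbols are those of GEO's platform annotation, brought up to date by gene identifier (10795 probe sets with 1 gene, 135 with several, 4572 not listed), and a gene was represented by its brightest probe set. No genome position is given, since the files name no build.

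Intensities were log2 transformed and compared in limma 3.58.1 (R 4.3.3; lmFit, eBayes, 2-sided). The fit was also run on simulated data with independent noise on each array, which cannot test for shared pool or normalization effects. A limma fit of the pairwise differences between genes was planned and not kept, because the pairs share genes. The exact permutation test is given, with an SE that adds both genes' variances. That SE treats the genes of a pair as independent, although they were read on the same arrays. It is therefore not the SE of the within-array ratio that the permutation test uses. Figures used matplotlib 3.10.9. The genes, lists and naming rules (up to 4 called genes per list, and per direction in the Rab and tetraspanin families) were chosen with earlier results of these data known. Alternatives were a replicate block, other scalings, trend and array weights, a filter on dim probe sets, a pseudocount of 16, a stricter threshold, fixed shares and leaving out each array.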

Additional observations from a re-analysis of the deposited data

Results flagged for a closer look

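Bacterial poly-A control probe sets, which take no part in the comparison, read higher in retina with RPE than in retina, with a median fold of 1.38 over 15 probe sets (0.991 to 3.47). In 12 of them the arrays of the 2 groups did not overlap. Their part in the rises of the pigment genes was not tested.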

How the results depend on the processing

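The 6 genes were called higher in each of 16 alternatives, except where the filter on low values took a gene out of the test. The filter on dim probe sets (mean log2 value of at least 6) left 4 of the 6 in the test, all 4 called, and removed tyr and rab32b. The weakest values were those of tyr and rab32b, whose log2 changes ranged from 0.30 to 0.55 and from 0.20 to 0.49, with adjusted p of at most 0.0331 and 0.0426 in limma. The change of pmelb ranged from 2.55 to 3.20, and that of dct from 2.52 to 2.80. The count of probe sets called was 5355, and 3439 to 5104 when each array was left out in turn, the lowest without retina with RPE replicate 3. It was 3112 under the filter on dim probe sets and 2666 at an adjusted p under 0.01, which test fewer probe sets or ask for more. The share of calls that lay higher was 54.9%, and 73.6% after centring on ribosomal protein genes, 33.5% after centring within probe set class and 37.9% under the filter. The median log2 change over all probe sets was 0.14 after the ribosomal centring and 0.04 as reported. The replicate block gave 5786 calls and again all 6 genes. Same-numbered pools deviated together at r = 0.175, 0.0786 and 0.130, and each pool correlated best with its own number. That is a hint from the data and not the design. Replicate numbers are those of the labels' descriptions, and title codes of some retina with RPE pools carry other numbers. Non-overlapping pairs numbered 12 to 13 of 15. With 3 arrays a group, the number of arrays limits the precision.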

Other observations

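Of 6 measured genes listed for iridophores, the reflecting pigment cells, 4 were called higher in retina with RPE, against 19.4% over all genes. These were the purine synthesis genes atic, gart and paics, at log2 changes of 1.36, 1.09 and 0.81, and ednrba, counted above among the regulators. Purine synthesis is not restricted to pigment cells. The summed intensity of the list was 8763 to 9693 in retina with RPE and 8295 to 9324 in retina, and so overlapped between the groups. Most of that sum came from tfap2a, not called at a log2 change of -0.25. It read 5095 to 5794 in retina with RPE and 6099 to 7197 in retina. The overlap of the sums therefore does not describe the other genes of the list.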
